A study of Rattus norvegicus with 102 samples.

Results

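Heat shock proteins and their DnaJ partners are the chaperones that fold, hold and refold other proteins. Members were the genes whose symbol begins with Hspa, Hspb, Hsph, Hsp90, Dnaja, Dnajb or Dnajc, or equals Hspd1 or Hspe1. They numbered 74 of the 26284 genes listed in the Illumina table. Of these, 45 were DnaJ genes (4 Dnaja, 13 Dnajb and 28 Dnajc), 11 were HSP70 genes, 3 were HSP110 genes, 3 were HSP90 genes, 7 were small heat shock protein genes and 2 encode the mitochondrial chaperonin HSP60 and its lid HSP10. The remaining 3 (Hspb11, Hspbap1 and Hspbp1) share the HSPB letters without being small heat shock proteins. A total of 64 members had a mean of at least 10 normalised reads in the Illumina libraries and could be tested, and the same 64 could be tested in the Ion Proton libraries. The 10 members below that level in the Illumina table were Hspa1b, Hspa8, Hspb3, Hspb7, Hspb9, Dnajb7, Dnajb8, Dnajc22, Dnajc5b and Dnajc5g.

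The rats were male Fischer 344 animals (spelled Fisher 344 in the labels) in 3 groups: 10 young rats (Y, 5 to 6 months), 12 aged rats with good scores in a water maze test of spatial memory (OG, aged unimpaired) and 12 aged rats with poor scores (OB, aged impaired), the aged rats being 17 to 22 months old. The titles name each rat by a number (R1922, for example), and neither a transgene nor a drug is named for any group. CA1, CA3 and the dentate gyrus (DG), the main cell fields of the hippocampus, were dissected from each of the 34 rats, which gives 3 libraries per rat in each of 3 tables. Poly-A RNA of the same samples was sequenced on Illumina and on Ion Proton instruments, and a further table carries the name WT, for which the sources used here do not give the library type. The Ion Proton libraries come from the same rats as the Illumina libraries, so a repeat of a difference there bears on technical error only.

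HSP70 proteins bind exposed stretches of unfolded proteins in a cycle driven by ATP. DnaJ proteins deliver the clients and trigger ATP hydrolysis, HSP110 proteins release the nucleotide, HSP90 proteins finish the folding of kinases and receptors, and small heat shock proteins hold damaged proteins until the others arrive. In neurons the same machinery strips clathrin from recycled synaptic vesicles and keeps aggregation-prone proteins soluble, and heat shock factor 1 switches many of its genes on under stress.

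Heat shock factors bind inverted repeats of the unit GAA. Promoter sequences of RefSeq (build GRCr8) were available for 59 members, and the 250 bases before each gene's start were searched on both strands. A pair of units (GAANNTTC or TTCNNGAA) stood in 15 of the 59 member promoters (25.4%) and in 13.5% of all 33469 promoters. A run of 3 units (GAANNTTCNNGAA or TTCNNGAANNTTC) stood in 4 of the 59 (6.78%) and in 0.663% of all promoters. The 4 were Hspa8, Hspd1, Hspe1 and Hsph1. Such a match is a description of the letters and not a measured binding site. The promoters of Hsph1 (chr12:10427118-10427367, plus strand), Hspe1 (chr9:64084077-64084326, plus strand) and Dnajb1 (chr19:41431142-41431391, minus strand) are given as examples of windows with these units, chosen after the members' values were seen. Each is written 5′ to 3′, with pairs of units in capitals.
Hsph1: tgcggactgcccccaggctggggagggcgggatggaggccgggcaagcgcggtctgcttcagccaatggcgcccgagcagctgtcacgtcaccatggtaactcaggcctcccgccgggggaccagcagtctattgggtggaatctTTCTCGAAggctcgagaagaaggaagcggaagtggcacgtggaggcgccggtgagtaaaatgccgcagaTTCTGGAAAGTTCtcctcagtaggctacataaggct
Hspe1: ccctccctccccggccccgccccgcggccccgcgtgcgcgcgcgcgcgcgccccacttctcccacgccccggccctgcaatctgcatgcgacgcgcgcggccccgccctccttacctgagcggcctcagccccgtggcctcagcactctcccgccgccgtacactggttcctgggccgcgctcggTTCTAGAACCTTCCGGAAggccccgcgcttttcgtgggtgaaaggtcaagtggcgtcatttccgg
Dnajb1: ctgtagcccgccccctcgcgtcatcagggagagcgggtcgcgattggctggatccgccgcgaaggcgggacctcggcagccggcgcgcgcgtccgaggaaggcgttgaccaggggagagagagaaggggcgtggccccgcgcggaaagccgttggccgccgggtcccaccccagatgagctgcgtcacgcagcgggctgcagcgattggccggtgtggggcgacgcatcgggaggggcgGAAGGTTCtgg
The Hsph1 and Hspe1 windows each held 3 pairs and the Dnajb1 window held 1. Hspe1 and Hspd1 lie head to head, with 289 bases between their starts, so that 211 bases of their windows are the same stretch read from opposite strands. The run printed for Hspe1 lies in that stretch, so the shares above count it for both genes.

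The Illumina libraries held 3.25 to 42.8 megareads (median 10.7), the Ion Proton libraries 4.47 to 21.4 megareads (median 9.74) and the WT libraries 3.54 to 20.6 megareads (median 8.07). The Illumina libraries of 7 rats were sequenced more deeply than the others. The 5 markers of CA1 pyramidal cells that could be tested were all higher in CA1 than in both other subfields, and 4 of 6 markers of dentate granule cells were higher in DG than in both others. All 6 dentate markers tested were also higher in CA1 than in CA3. Of 6 markers of CA3 pyramidal cells, Nnat alone was higher in CA3 than in both others, and Chgb and Cpne4 were higher in DG than in CA3. By these markers 12 libraries of 10 rats lay nearer to another subfield than to their label (7 labelled CA3, 4 DG and 1 CA1), and 10 of the 12 came from rats numbered 9000 and up. Rat numbers fall into a series below 9000 (18 rats) and a series from 9000 (16 rats), each with all 3 groups. The study worked at a pair of sites and the labels do not say which rat came from which, so where calls of members were lost within a series this is stated beside the results.

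Levels are read counts divided by a size factor for each library. They are not divided by gene length and are compared between libraries, not between genes. Most members varied little between rats: over the 64 members, the median SD between rats of the same group and subfield was 0.19 on the log2 scale in the Illumina table and 0.36 in the Ion Proton table. Dnajb12 (SD 1.97), Hspa1a (0.72) and Hspb1 (0.69) varied most in the Illumina table.

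The constitutive HSP70 gene Hspa8, whose product is also the uncoating chaperone of clathrin vesicles, is abundant in neurons, but the tables did not give it one level. It ranged from 0 to 12.8 normalised reads in the Illumina libraries, whereas in the Ion Proton libraries it ranged from 365 to 1440. The RefSeq table names 33 pseudogenes of Hspa8 in the rat, and the chromosome listed for Hspa8 in the files was not that of RefSeq. The stress-inducible pair Hspa1a and Hspa1b, which are near-identical copies, showed a related problem. In CA1, CA3 and DG, Hspa1a had medians of 10.5, 14.3 and 14.3 normalised reads in the Illumina table and 17.4, 25.6 and 22.7 in the Ion Proton table. Hspa1b was at 0 in all Illumina libraries but 1, and had Ion Proton medians of 14.7, 20.2 and 16.1. Reads of these 3 genes may have been split or dropped between copies, so no difference in them is drawn here.

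CA1 and CA3 differed in 8 of the 64 members in both poly-A tables with 1 direction (adjusted p under 0.05 in limma in each table), 5 higher and 3 lower in CA1. The share of all 13907 genes called by this rule was 14.4% (7.26% higher and 7.09% lower). CA1 and DG differed in 17 of 64 members, 6 higher and 11 lower in CA1, beside 26.9% of all genes (13.4% higher and 13.5% lower). CA3 and DG differed in 10 of 64, 3 higher and 7 lower in CA3, beside 28.5% of all genes (14.1% higher and 14.3% lower). The members' counts in the first and second comparisons were thus close to those shares, and the count in the third was below its share. Members that differed from both other subfields in 1 direction numbered 4 for CA1 (5.71% of all genes), 3 for CA3 (6.29%) and 4 for DG (15.1%). With the rat as a replicate block the count for DG was 7, beside 17.1% of all genes, the members added being Dnaja2, Hspa12b and Hspb8. In CA1, Dnajc1 and Hspa12b were high (2.42% of all genes) and Dnajc6 and Hsp90ab1 low (3.29%). In CA3, Hspa12a was high (2.53%) and Dnajb13 and Dnajb5 low (3.76%), and in DG, Dnajb13, Hspb2 and Hsph1 were high (7.1%) and Dnajb2 low (8.02%). The counts for CA1 against DG, CA3 against DG and DG include Hspb2, which reached the Ion Proton minimum only through its level in DG. Over the 64 members the median log2 change in the Illumina table was −0.0081 between CA1 and CA3, −0.055 between CA1 and DG and −0.022 between CA3 and DG, beside 0.0061, 0.0029 and 0.0099 over all genes tested. Among all 35 differences called, the Illumina ranges of the subfields overlapped.

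**Figure D1:**
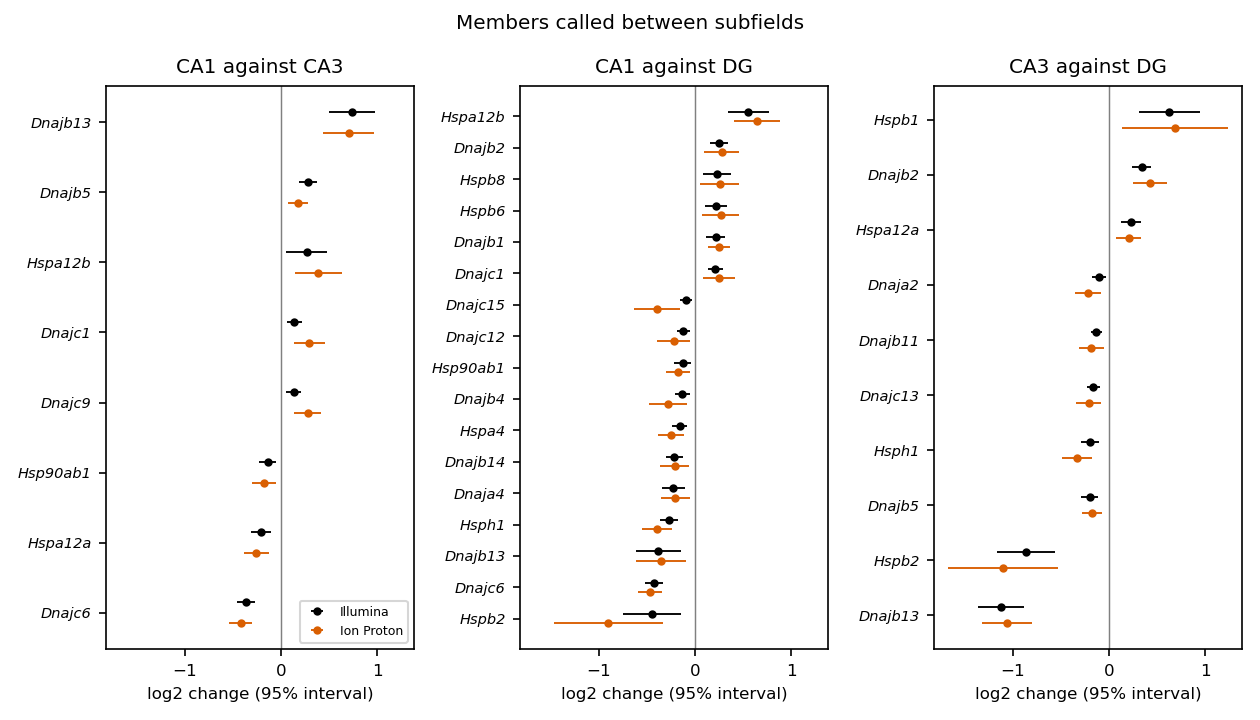
Log2 change (horizontal axis, with 95% interval from limma) of each member called between CA1 and CA3 (left, 8), CA1 and DG (middle, 17) and CA3 and DG (right, 10), in the Illumina table (black) and the Ion Proton table (orange). Dnajb13 and Hspb2 in CA3 against DG are the changes beyond 1 log2 unit in either table, and most others lie within 0.5 units of 0.

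The largest difference among the members in the Illumina table was that of Dnajb13, a J protein of the radial spokes of motile cilia and sperm flagella. Its lowest, median and highest Illumina levels were 131, 257 and 437 normalised reads in CA1. CA3 held 64.2, 157 and 330, and DG held 148, 340 and 629. DG was thus high, CA3 low and CA1 between, with overlapping ranges. It was lower in CA3 than in DG in 32 of 34 rats (log2 change −1.12, 95% interval −1.36 to −0.88, adjusted p = 1.21e-13 in limma). The Ion Proton change was −1.06, or 2.08-fold. CA1 exceeded CA3 by a log2 change of 0.74 (adjusted p = 2.93e-07 in limma, higher in 26 of 34 rats). The CA3 against DG change was −0.91 in rats numbered below 9000 and −1.35 in those from 9000, and its call held in each series. The change between CA1 and CA3 was 0.28 below 9000, where it was not called, and 1.26 from 9000, and the change between CA1 and DG was −0.63 below 9000 and −0.10 from 9000, where it was not called. The CA1 against DG call also ended without any 1 of rats R2184, R2185, R2233, R9862, R9869 and R9870, when the Ion Proton change was −0.34 to −0.31 with an adjusted p of 0.0501 to 0.0735 in limma, and without a filter on low values or without rats R1922 and R1923. Of 5 ependymal markers, Ccdc153, Rsph1, Spag6 and Tekt1 were higher in CA3 than in DG, opposite to Dnajb13. Spag6 and Tekt1 were higher and Dnah9 lower in CA1 than in DG, and Ccdc153 and Spag6 were lower in CA1 than in CA3, also opposite to Dnajb13. The summed level of the 5, in which genes with more reads weigh more, was nevertheless highest in DG. Its medians were 1422 normalised reads in CA1 (716 to 2058), 1771 in CA3 (489 to 2752) and 1919 in DG (872 to 2521). This order is thus not that of most of the 5 taken singly between CA3 and DG. The summed level of the dentate granule markers followed the order of Dnajb13. It had medians of 5414 in DG (1078 to 8325), 3290 in CA1 (1182 to 4827) and 1533 in CA3 (708 to 5770), with Tdo2 at a median of 0. Not every marker did so singly: 5 of 6 tested were lower in CA3 than in DG, and the other was not. The part of either cell type in the Dnajb13 differences was not tested.

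**Figure D2:**
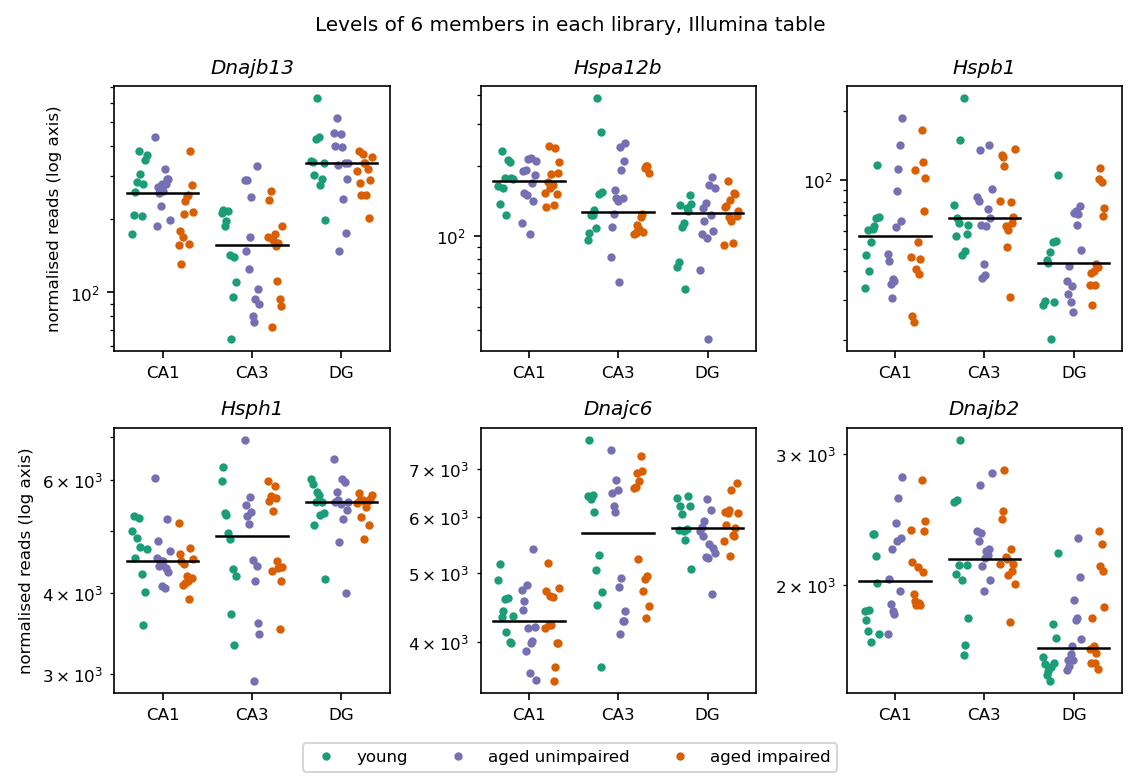
Normalised reads (log axis) of Dnajb13, Hspa12b, Hspb1, Hsph1, Dnajc6 and Dnajb2 in each Illumina library, by subfield, with young rats in green, aged unimpaired in purple and aged impaired in orange, and a line at the median of the 34 rats. Dnajb13 was lowest in CA3 (median 157), Dnajc6 lowest in CA1 (median 4285) and Dnajb2 lowest in DG (median 1647), and the ranges overlap in every panel.

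Dnajc6 encodes auxilin, the J protein that recruits HSP70 to strip clathrin from synaptic vesicles. Its lowest, median and highest levels were 3524, 4285 and 5400 normalised reads in CA1. CA3 held 3693, 5694 and 7690, and DG held 4671, 5779 and 6695. CA1 was lower than DG in 33 of 34 rats, 1.34-fold (log2 change −0.42, 95% interval −0.52 to −0.33, adjusted p = 2.39e-12 in limma), and 1.38-fold in the Ion Proton table. CA1 was lower than CA3 in 30 of 34 rats in both tables (log2 change −0.36 and −0.42, adjusted p = 1.87e-09 and 1.32e-07 in limma). The CA1 against DG change was −0.38 below 9000 and −0.47 from 9000. The CA1 against CA3 change was −0.54 below 9000 and −0.16 from 9000, where the call was lost in the Ion Proton table. Of the 6 markers of CA3 pyramidal cells tested, Chgb, Cpne4, Grik4 and Nnat were likewise lower in CA1 than in both other subfields. The rest of the 6 were not. The summed level of the 7 markers on their list had medians of 12191 in CA1 (8258 to 18336), 26374 in CA3 (7732 to 32236) and 23247 in DG (14191 to 31510), and none was at a median of 0. Their part in the Dnajc6 difference was not tested. Dnajc5, the cysteine string protein of synaptic vesicles, had medians of 1073, 1121 and 1287 normalised reads in CA1, CA3 and DG and was not called in any pair. Dnajc13, a J protein of early endosomes, was lower in CA3 than in DG (log2 change −0.16 and −0.21 in the Illumina and Ion Proton tables). The Illumina change was −0.26 below 9000 and −0.05 from 9000, and the call was lost in each series alone.

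Among the HSP110 genes, which reload HSP70 with ATP, Hsph1 and Hspa4 were lower in CA1 than in DG and Hspa4l was not called. Hsph1 ranged from 3572 to 6031 normalised reads in CA1 (median 4489), from 2918 to 6915 in CA3 (median 4914) and from 4008 to 6470 in DG (median 5542). DG was high, and the ranges overlapped. Hsph1 was lower in CA1 than in DG in 32 of 34 rats (log2 change −0.27, adjusted p = 2.69e-06 in limma), with −0.39 in the Ion Proton table. It was lower in CA3 than in DG by −0.20 and −0.33, but this change was −0.0038 in the Illumina rats numbered below 9000 and −0.41 in those from 9000. The CA1 against DG change was −0.25 and −0.29, and neither call was kept below 9000 alone. Hspa4, for which CA1 had a median of 3793 and DG of 4283 normalised reads, was lower in CA1 in 32 of 34 rats (log2 change −0.16, adjusted p = 0.000373 in limma). This change was −0.11 below 9000, where the call was lost, and −0.21 from 9000.

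Hsp90ab1, the constitutive cytosolic HSP90, had medians of 20073 normalised reads in CA1 (16997 to 27182), 23125 in CA3 (14619 to 30986) and 22449 in DG (18889 to 25727). CA1 had the lowest median, with overlapping ranges, and was lower than CA3 (log2 change −0.14, adjusted p = 0.0109 in limma) and lower than DG (−0.13, adjusted p = 0.0126 in limma). The difference from DG was not called below 9000 or after quantile normalisation. The difference from CA3 was −0.31 below 9000 and 0.06 from 9000, where it was not called, and leaving out any 1 of 16 rats ended its call, with an Ion Proton adjusted p of 0.0513 to 0.0754 in limma. That call was also lost without a filter on low values, after quantile normalisation, without the deeply sequenced rats and without rats R1922 and R1923. Hsp90aa1, the inducible HSP90, with medians of 7788, 10116 and 8933, and Hsp90b1, the HSP90 of the endoplasmic reticulum, with medians of 5426, 5667 and 5608 in CA1, CA3 and DG, were not called in any pair.

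Hspa12a and Hspa12b encode distant relatives of HSP70, the latter best known from endothelial cells. Hspa12a had medians of 4308 normalised reads in CA1 (2883 to 5681), 5037 in CA3 (2932 to 6026) and 4003 in DG (3362 to 4924). CA3 was higher than CA1 in 31 of 34 rats (CA1 against CA3 log2 change −0.21, adjusted p = 0.000776 in limma) and higher than DG in 25 (0.23, adjusted p = 6.44e-05 in limma). Neither call held in the rats from 9000 alone: the change between CA3 and DG was 0.44 in rats numbered below 9000 and 0.0028 in those from 9000, and the change between CA1 and CA3 was −0.25 and −0.16. The call against DG was also lost without the deeply sequenced rats. Hspa12b had medians of 173 normalised reads in CA1 (102.4 to 241), 127 in CA3 (64.0 to 388) and 125 in DG (36.5 to 179). CA1 was high, with overlapping ranges, and exceeded DG by 1.47-fold in 32 of 34 rats (log2 change 0.56, 95% interval 0.35 to 0.77, adjusted p = 5.79e-06 in limma) and by 1.57-fold in the Ion Proton table. This change was 0.58 below 9000 and 0.54 from 9000. Its difference from CA3 was smaller (0.27, adjusted p = 0.0405 in limma), ended when any 1 of 14 rats was left out (Illumina adjusted p = 0.0502 to 0.0743 in limma), was not called by edgeR (0.20, Illumina adjusted p = 0.141) or DESeq2 (0.20, adjusted p = 0.134), without a filter on low values, without the deeply sequenced rats or without rats R1922 and R1923, and was 0.54 below 9000 but −0.04 from 9000, where it was not called.

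Of 6 endothelial markers, Abcb1a, Cldn5, Flt1 and Tek were higher in CA1 than in DG, as Hspa12b was, and 0 were called between CA1 and CA3. Their summed level had medians of 3143 normalised reads in CA1 (1923.2 to 4696), 2330 in CA3 (1327 to 8085) and 2501 in DG (938 to 3550), with no marker at a median of 0. Their part in the Hspa12b difference was not tested. In these bulk samples, fewer cells of a type and less RNA per cell cannot be told apart.

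Among the small heat shock proteins, Hspb1 (HSP27), which protects the cytoskeleton under stress, had medians of 57.0 normalised reads in CA1 (23.9 to 186), 68.2 in CA3 (30.9 to 227) and 43.2 in DG (20.1 to 112). CA3 was high and DG low, with wide overlap, and CA3 exceeded DG by 1.55-fold in 26 of 34 rats (log2 change 0.63, 95% interval 0.31 to 0.95, adjusted p = 0.000526 in limma). The Ion Proton change was 0.69 with an adjusted p of 0.0485 in limma, and leaving out any 1 of 22 rats ended the call (0.0518 to 0.0924). The change was 1.07 below 9000 and 0.14 from 9000. The call was also lost with a pseudocount of 0.1, without a filter on low values and without rats R1922 and R1923. Of 6 microglial markers, 5 were higher in CA3 than in DG, with summed medians of 3551 in CA3 (2898 to 6151) and 2913 in DG (2116 to 3895) and none at a median of 0, and the myelin genes Cnp, Mag, Mbp, Mobp and Mog were higher in CA3 too. Their part in the Hspb1 difference was not tested.

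Hspb2, a small heat shock protein known from muscle, was at the edge of detection: its medians were 12.4 normalised reads in CA1 (4.64 to 31.4), 8.92 in CA3 (1.03 to 64.2) and 18.1 in DG (8.13 to 32.3). DG was high, and Hspb2 was lower in CA3 than in DG by 1.81-fold in 29 of 34 rats (log2 change −0.86) and lower in CA1 than in DG (−0.44). In the Ion Proton table it was lower in CA3 than in DG by 2.14-fold, the largest difference of a called member there. Its mean over all Ion Proton libraries was 10.1 normalised reads, just above the minimum of 10, with means of 7.69 in CA1, 9.09 in CA3 and 13.6 in DG. It thus entered the repeat only through DG, where it is high, so its calls are given as a description and not as support for a difference. edgeR and DESeq2 did not call the change between CA3 and DG, neither change was called without the libraries nearer another subfield, and the change between CA1 and DG was not called without the deeply sequenced rats. Without any 1 of rats R2189, R9781, R9865, R9874 and R9876 its Ion Proton mean fell below the minimum of 10 and the repeat could not be tested, while the Illumina change between CA3 and DG was −0.93 to −0.85.

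Hspb8 (HSP22), which works with Bag3 to send clients to autophagy, had medians of 304 normalised reads in CA1 (215 to 580), 313 in CA3 (211 to 472) and 265 in DG (195 to 470). It was higher in CA1 than in DG in 28 of 34 rats (log2 change 0.23, adjusted p = 0.00441 in limma), but leaving out any 1 of 22 rats ended the call (Ion Proton adjusted p = 0.0506 to 0.0853 in limma). The call was also lost without a filter on low values, after quantile normalisation, without the deeply sequenced rats and without the libraries nearer another subfield. Hspb6 (HSP20) was also higher in CA1 than in DG (0.22 and 0.27 in the Illumina and Ion Proton tables, adjusted p = 0.000521 and 0.0267 in limma). Without any 1 of rats R2233, R9870 and R9874 the Hspb6 call ended, with an Ion Proton change of 0.22 to 0.24, and it was also lost in the WT table, where the change was 0.13. Within the number series, the calls of Hspb6 and Hspb8 were not kept below 9000, that of Hspb1 was not kept from 9000, and those of Hspb2 were kept in neither series alone. Dnajb2, a J protein with ubiquitin-binding motifs that is known from neurons, was lowest in DG. Its medians were 2022 normalised reads in CA1 (1678 to 2796), 2168 in CA3 (1609 to 3132) and 1647 in DG (1483 to 2360). It was higher in CA3 than in DG by 1.27-fold in 28 of 34 rats (log2 change 0.34, 95% interval 0.25 to 0.44, adjusted p = 3.45e-09 in limma) and higher in CA1 than in DG by 1.19-fold in 30 of 34 rats (0.25, adjusted p = 6.97e-06 in limma). The CA3 against DG change was 0.57 below 9000 and 0.09 from 9000, where it was not called, and the CA1 against DG call was lost below 9000 (0.27 in the Illumina and 0.14 in the Ion Proton table).

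Myelin genes moved the same way as Dnajb2, Hspb6 and Hspb8. The oligodendrocyte markers Cnp, Mag, Mbp, Mobp and Mog were each higher in CA1 and in CA3 than in DG. Mbp, a main protein of myelin, had Illumina log2 changes of 0.87 in CA1 and 0.94 in CA3 against DG (adjusted p = 2.94e-07 and 3.26e-08 in limma), and Mog had changes of 0.63 and 0.75. None of these 5 was at a median of 0. Their part in these differences was not tested.

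The other J proteins that differed did so by at most 1.22-fold in the Illumina table. Dnajb1, the main partner of HSP70 in taking aggregates apart, had medians of 812 normalised reads in CA1 (619 to 1169) and 739 in DG (551 to 966). The ranges overlapped, and CA1 was higher in 28 of 34 rats (log2 change 0.22 and 0.25 in the Illumina and Ion Proton tables, adjusted p = 8.84e-05 and 0.000299 in limma). The Illumina change was 0.31 below 9000 and 0.11 from 9000, and the call was lost in each series alone. Dnajb5 was lowest in CA3, with medians of 1757, 1474 and 1653 in CA1, CA3 and DG, and was higher in CA1 than in CA3 in 31 of 34 rats (0.28, adjusted p = 2.18e-07 in limma), with 0.26 below 9000, where the call was lost, and 0.31 from 9000. The call was also lost without the deeply sequenced rats. Its call between CA3 and DG was lost below 9000 too. Dnajc1, a J protein of the endoplasmic reticulum membrane, was highest in CA1 (median 144 against 129 in CA3 and 125 in DG), with log2 changes of 0.14 and 0.21. The call against DG was lost after quantile normalisation and in each series alone (0.23 below 9000 and 0.19 from 9000) and the call against CA3 from 9000 (0.19 and 0.08). Dnajc9, a histone chaperone, was higher in CA1 than in CA3 (0.13 and 0.28 in the Illumina and Ion Proton tables), with Illumina changes of 0.17 below 9000 and 0.09 from 9000, where the call was lost.

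Further members that were lower in CA1 than in DG were the cytosolic J proteins Dnaja4 (−0.22 and −0.20 in the Illumina and Ion Proton tables) and Dnajb4 (−0.13 and −0.28), Dnajb14 of the endoplasmic reticulum membrane (−0.21 and −0.21), Dnajc12 (−0.12 and −0.22) and Dnajc15 of the inner mitochondrial membrane (−0.09 and −0.39). Lower in CA3 than in DG were the cytosolic Dnaja2 (−0.10 and −0.21) and Dnajb11, a partner of BiP in the endoplasmic reticulum (−0.13 and −0.18). The Ion Proton adjusted p passed 0.05 in limma when single rats were left out: for Dnaja4 without any 1 of rats R1922, R2189, R2238, R9781, R9872 and R9874 (change −0.19 to −0.18), for Dnajb4 without rat R9870 (−0.24), for Dnajb14 without rat R2230 (−0.18), for Dnajb11 without rat R9867 or R9869 (both −0.16), and for Dnajc12 without any 1 of 19 rats (−0.22 to −0.19). With the WT table in place of the Illumina table the calls of Dnajb14, Dnajb4 and Dnajc12 were lost, with WT log2 changes of −0.04, −0.07 and −0.07 between CA1 and DG. Within the number series, the calls of Dnaja4, Dnajb14 and Dnajc15 were lost in each series alone, and those of Dnajb4, Dnajb11 and Dnajc12 below 9000. Dnaja4 and Dnajc15 lost theirs without the deeply sequenced rats, Dnaja4 and Dnajc12 without a filter on low values, Dnaja4 without rats R1922 and R1923, and Dnajc12 in DESeq2. Dnaja2 was called in the rats from 9000, whereas its Illumina change was 0.03 in those below 9000.

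Several of the best known members were not called between any pair of subfields in the fit without the block. With the rat as a replicate block, Dnaja1 and Dnaja2 were also called as lower in CA1 than in DG, Hspa12b, Hspb8 and Hspbp1 as higher in CA3 than in DG, and no other call was added. Hspa5, which encodes BiP, the HSP70 of the endoplasmic reticulum, had Illumina medians of 4770, 4968 and 4839 normalised reads in CA1, CA3 and DG. Hspa9, the mitochondrial HSP70, had medians of 1868, 1999 and 1895. Hspd1 (HSP60) had medians of 1781, 1947 and 1914, and Hspe1 (HSP10) of 761, 794 and 734. Dnaja1 had medians of 2782, 3433 and 3117, Dnajb6, a suppressor of polyglutamine aggregation, of 966, 955 and 991, and Dnajc3, an inhibitor of the kinase PERK, of 251, 246 and 265. Hspa2, an HSP70 known from the testis, had medians of 415, 444 and 456.

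Genes that work with the members were read from lists by the same rule, and the counts of these lists stand beside 7.26% of all genes higher and 7.09% lower in CA1 than in CA3, 13.4% and 13.5% in CA1 than in DG, and 14.1% and 14.3% in CA3 than in DG. Of 30 heat shock factors and cytosolic co-chaperones, 1 was higher in CA1 than in DG and 8 were lower, and 1 was higher in CA3 than in DG and 7 were lower. The gene higher in both was Bag3, the nucleotide exchange factor that pairs with Hspb8 (log2 change 0.51 in CA1 and 0.55 in CA3 against DG, adjusted p = 8.25e-10 and 8.81e-11 in limma). Those lower in both included Hsf2, a heat shock factor (−0.26 and −0.14), and Fkbp5, a co-chaperone of the glucocorticoid receptor (−0.45 and −0.18). Stip1, which links HSP70 to HSP90, was lower in CA1 than in DG (−0.14). Between CA1 and CA3, Bag2 and Bag5 were higher and Fkbp5 was lower in CA1.

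Of 19 genes of endoplasmic reticulum folding and the unfolded protein response, Xbp1 (−0.20 in CA1 and −0.46 in CA3 against DG), Ddit3 (−0.22 and −0.26) and Atf6 (−0.18 and −0.11) were lower in both CA fields than in DG. P4hb, a protein disulphide isomerase, was higher in both (0.16 and 0.13), and Canx was lower in CA1 than in DG. Of 11 genes of mitochondrial folding and proteolysis, Trap1, the mitochondrial HSP90, was lower in CA1 than in CA3 (−0.16), and Afg3l2 and Clpp were lower in CA1 than in DG. Of 14 genes of the cytosolic chaperonin CCT and prefoldin, Cct5, Cct6a and Cct7 were lower in CA1 than in DG, and Cct5 was lower in CA3 too (−0.11 in both). Among 6 crystallin and disaggregation genes tested, Cryab, a small heat shock protein abundant in oligodendrocytes, was higher in CA1 and CA3 than in DG (0.61 and 0.64), as the myelin genes were.

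Aging and memory class were tested next, in each subfield and in the mean of the 3 subfields of each rat. A member counted as retested when limma gave p under 0.01 in the Illumina table and the Ion Proton table repeated its direction with a 1-sided p under 0.05. None of the 63 or 64 members passed for age (24 aged against 10 young rats) in CA1, CA3, DG or the mean, beside 0.851%, 0.402%, 1.09% and 1.71% of all genes. None passed for cognition (12 impaired against 12 unimpaired aged rats), beside 0.635%, 0.0216%, 0.124% and 0.0791%. No member had an adjusted p under 0.05 in limma in either table. At an unadjusted p under 0.05, limma gave 5, 1, 2 and 5 members for age in CA1, CA3, DG and the mean in the Illumina table (6.15%, 3.31%, 5.2% and 8.2% of all genes) and 2, 1, 1 and 0 for cognition (5.71%, 1.4%, 3.85% and 1.43%). In the Ion Proton table it gave 1, 1, 8 and 5 for age (3.38%, 1.43%, 8.47% and 7.71%) and 0, 0, 0 and 1 for cognition (1.95%, 1.44%, 1.64% and 1.11%). edgeR and DESeq2 each retested 1 member, Dnajb2 for age in the mean over subfields, and 0 elsewhere.

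The intervals show what these counts could miss. In the mean over subfields, the 95% interval of the change reached a median of 0.093 log2 units to either side for age and 0.10 for cognition in the Illumina table. It lay within 0.5 log2 units of 0 (1.41-fold) for 62 of 64 members for age and 63 of 64 for cognition. In single subfields this held for 60, 59 and 61 of 64 members for age in CA1, CA3 and DG, and for 59 of 64, 59 of 63 and 62 of 64 for cognition. For the Ion Proton table the corresponding counts were 46 of 65, 50 of 65 and 52 of 66 for age, and 45 of 65, 40 of 65 and 55 of 66 for cognition. Changes of most members beyond 1.41-fold thus lay outside the Illumina intervals.

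**Figure D3:**
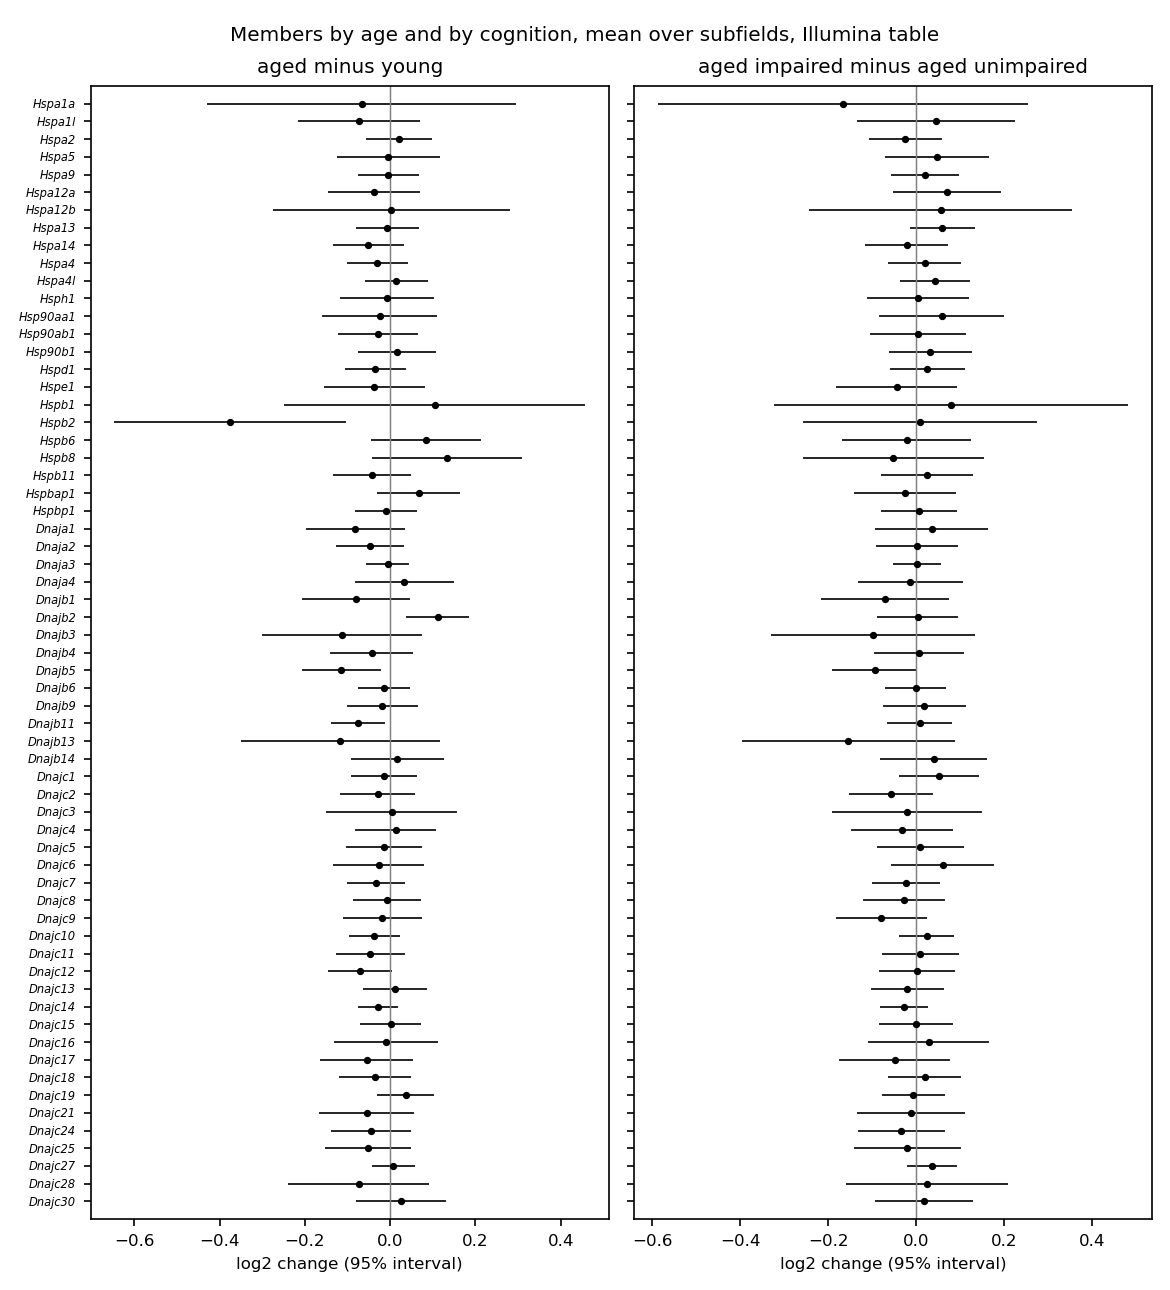
Log2 change with its 95% interval from limma (horizontal axis) for 63 tested members in the mean over the subfields of each rat, Illumina table, for aged minus young rats (left) and aged impaired minus aged unimpaired rats (right); Dnajb12 is left out. Most intervals span 0, and those of Hspa1a, Hspa12b and Hspb1 are wide.

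No change with age was resolved in the stress-inducible members. For Hsph1 the change with age in the mean over subfields was −0.01 (95% interval −0.12 to 0.10), for Hspa5 −0.0038 (−0.12 to 0.12), for Hsp90aa1 −0.02 (−0.16 to 0.11), for Dnajb1 −0.08 (−0.21 to 0.05) and for Hspb1 0.10 (−0.25 to 0.46). These are Illumina values, their intervals all contain 0, and that of Hspb1 is the widest of these. Ion Proton changes with age reached 0.47 for Hsp90aa1 in CA1 and 0.52 for Hspb1 in DG. Apart from Dnajb12 these were the highest of any member tested there. The smallest adjusted p of a member there was 0.934 in CA1 and 0.57 in DG in limma. Between impaired and unimpaired aged rats the Illumina changes in the mean over subfields were 0.0044 for Hsph1, 0.05 for Hspa5, 0.06 for Hsp90aa1, −0.07 for Dnajb1 and 0.08 for Hspb1.

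The members nearest to a call for age were Hspb2 and Dnajb2. Hspb2 in CA1 ranged from 11.0 to 31.4 normalised reads in young rats (median 16.5) and from 4.64 to 23.9 in aged rats (median 11.3). The groups overlapped, the log2 change was −0.57 (95% interval −0.97 to −0.16, p = 0.00783, adjusted p = 0.454 in limma), and at this level Hspb2 was not tested in the Ion Proton libraries of CA1. Dnajb2 had medians of 1847 in young and 2099 in aged rats in CA1. In CA3 its medians were 2097 in young and 2188.7 in aged rats, in DG they were 1568 and 1674, and the ranges overlapped in each. Its change in the mean over subfields was 0.11 (0.04 to 0.19, p = 0.00388, adjusted p = 0.183 in limma) in the Illumina table and 0.13 (−0.03 to 0.29) in the Ion Proton table. Dnajb5 leaned the other way (−0.11, p = 0.0183 in limma, and −0.10 in the Ion Proton table).

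For cognition, Hspa2 in CA1 ranged from 390 to 507 normalised reads in unimpaired rats (median 449) and from 355 to 461 in impaired rats (median 402), with overlapping ranges (log2 change −0.15, p = 0.00374, adjusted p = 0.562 in limma). The Ion Proton change was −0.16 (95% interval −0.40 to 0.08). Hsp90aa1 in DG ranged from 7596 to 9165 in unimpaired rats (median 8554) and from 7827 to 10569 in impaired rats (median 9237), with a log2 change of 0.12 (adjusted p = 0.999 in limma). That change was −0.04 in the WT table. For a different change with age or with cognition between subfields, limma gave 0 of 64 members with an adjusted p under 0.05 for either interaction and also 0% of all genes, so nothing is read from it about the members. It gave 0 members at an unadjusted p under 0.05 in the Illumina table (0.353% to 1.93% of all genes over the 3 subfield pairs for age and 1.84% to 4.56% for cognition), and 0 or 1 per subfield pair in the Ion Proton table (0.713% to 3.52%), and edgeR gave 0. Genes of glia did move with age in these libraries: 3 of 6 microglial markers (Csf1r, Cx3cr1 and P2ry12) and 1 of 6 astrocyte markers (Gfap) were retested as higher in aged rats in the mean over subfields. None of the genes on the co-chaperone, endoplasmic reticulum, mitochondrial, chaperonin and crystallin lists was retested for age or cognition.

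A single member broke the pattern of small spreads. Dnajb12 encodes a J protein anchored in the endoplasmic reticulum membrane that helps send misfolded membrane proteins to degradation. In the 6 Illumina libraries of young rats R1922 and R1923 it had 0 to 1.52 normalised reads (0 to 4 whole reads). In the other 8 young rats it ranged from 620 to 757 (median 683) and in the 24 aged rats from 588 to 841 (median 676). The gap was the same in the other tables: 0 to 1.08 against 499 to 818 in the other young rats and 404 to 860 in the aged rats in the Ion Proton table, and 0 in all 6 libraries against 323 to 501 and 342 to 507 in the WT table. All 3 subfields of both rats were at or near 0 on both instruments, and no library of the other 32 rats was near it.

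**Figure D4:**
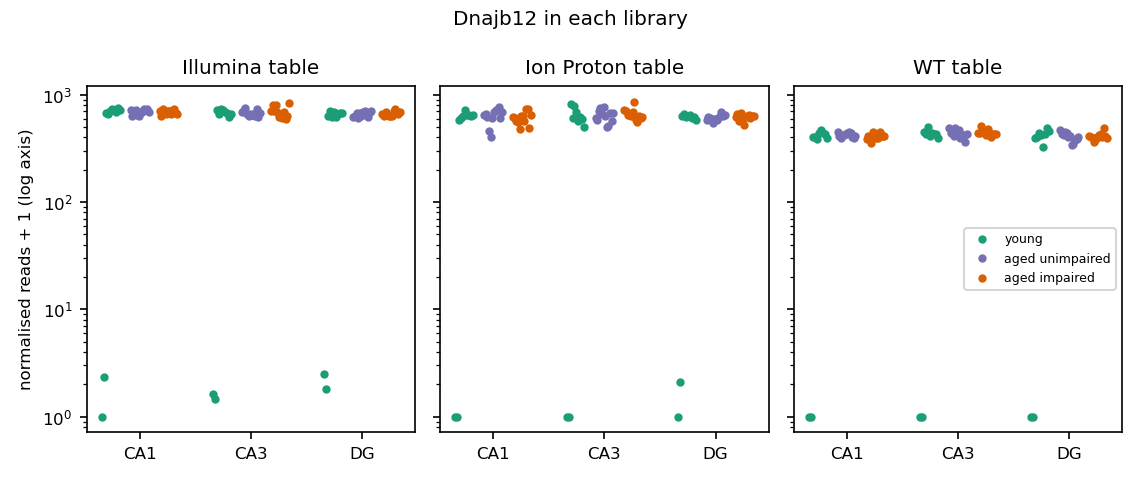
Normalised reads plus 1 of Dnajb12 (log axis) in each library of the Illumina, Ion Proton and WT tables, by subfield, with young rats in green, aged unimpaired in purple and aged impaired in orange. In each subfield and table the points of 2 young rats lie at or near 1 (no reads), and the points of the other 32 rats lie far above.

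Among genes with a mean of at least 10 normalised reads, Dnajb12 was the 1 gene of 14179 in the Illumina table that was below 0.1 times the median of the other rats in all 6 libraries of those rats, and no gene was that much higher in all 6. The same held for 1 of 15282 genes in the Ion Proton table and 1 of 13655 in the WT table. These rats were singled out after the values were seen, so the gap is a description with no test. They set the age change of Dnajb12: it was 1.73, 1.76, 1.66 and 1.72 log2 units in CA1, CA3, DG and the mean (p = 0.0193, 0.0175, 0.0161 and 0.017, adjusted p = 0.638, 0.999, 0.674 and 0.409 in limma), and −0.04, −0.0051, 0.0070 and −0.01 without them.

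Whether a rat that was high in one subfield was high in the others was asked for 8 members with 45 correlations over the 34 rats. By Pearson's r, 8 of 21 passed an adjusted permutation p of 0.05 in the Illumina table and 0 of 24 in the Ion Proton table. What share of other genes would pass was not tested, so the count is not read as a trait of these members. Dnajb1 correlated in all 3 pairs (Pearson r = 0.71 for CA1 and CA3, 0.63 for CA1 and DG and 0.49 for CA3 and DG, Spearman rho = 0.70, 0.68 and 0.49, adjusted permutation p = 0.00045, 0.00105 and 0.0222). Within the series below 9000 and from 9000, r was 0.84 and 0.61, 0.84 and 0.12, and 0.85 and 0.53. Without the 2 rats farthest from the median it was 0.59, 0.63 and 0.45. In the Ion Proton table the same 3 correlations were −0.10, 0.20 and 0.12. Hspa5 correlated between CA1 and DG (r = 0.73, rho = 0.75, 0.91 below 9000 and 0.46 from 9000, 0.89 without 2 rats), with r = 0.12 in the Ion Proton table. Between CA1 and CA3 it gave r = 0.49 (rho = 0.48, adjusted permutation p = 0.0222) in the Illumina table and r = 0.42 (rho = 0.46) in the Ion Proton table, where the adjusted permutation p was 0.057 for r and 0.036 for rho. Hsp90aa1 correlated between CA1 and CA3 in the Illumina table (r = 0.53, rho = 0.56, adjusted permutation p = 0.0103 and 0.00612), with r = 0.63 below 9000, −0.0019 from 9000 and 0.49 without 2 rats. In the Ion Proton table it gave r = 0.31 and rho = 0.49, with an adjusted permutation p of 0.247 for r and 0.0225 for rho. Hspb1 correlated between CA1 and DG in the Illumina table (r = 0.60, rho = 0.67), with r = 0.44 below 9000 and 0.17 from 9000. Its Ion Proton r was 0.08. Hsph1 correlated between CA1 and CA3 in the Illumina table (r = 0.48, rho = 0.44), with r = 0.59 below 9000 and 0.16 from 9000. Its Ion Proton r was 0.33.

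Pairs of members within a subfield behaved differently. This question was added after the data were seen, for the 28 pairs of 8 stress-responsive members, in 3 subfields and both poly-A tables (168 correlations over 34 rats, of which 120 passed an adjusted permutation p of 0.05, 119 of them positive). Dnaja1 and Hspd1 rose and fell together everywhere: r was 0.84 to 0.89 over the 3 subfields in the Illumina table and 0.73 to 0.94 in the Ion Proton table, with rho of at least 0.71, a largest adjusted permutation p of 5.89e-05, and r of at least 0.61 within either number series or without 2 rats. Hsph1 and Dnaja1 gave 0.43 to 0.87 and 0.80 to 0.85. Hspd1 and Hspe1, the pair that shares a promoter region, gave 0.37 to 0.79 and 0.45 to 0.73, with r of at least 0.23 within either series or without 2 rats.

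The 2 chaperones of the endoplasmic reticulum, Hspa5 and Hsp90b1, were tightly related in the Illumina table (r = 0.79 to 0.92) and less so in the Ion Proton table (0.16 to 0.60). Dnajb1 was related positively to Dnaja1 in the Illumina table (0.48 to 0.56) and not in the Ion Proton table (−0.25 to −0.13). Both genes of a pair are read from the same library, so depth, dissection and normalisation enter both values. Whether pairs of other genes correlate as strongly was not tested.

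**Figure D5:**
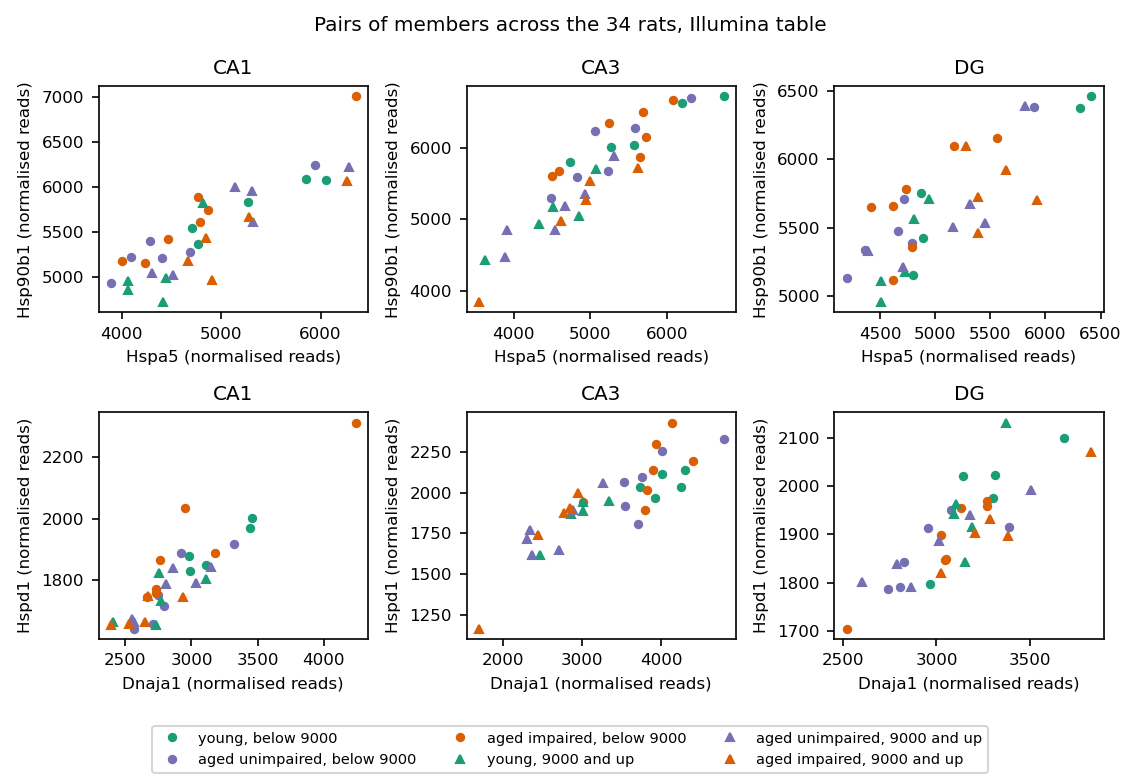
Normalised reads of Hspa5 and Hsp90b1 (upper row) and of Dnaja1 and Hspd1 (lower row) in CA1, CA3 and DG, 1 point per rat, Illumina table, with colours for the groups, circles for rats numbered below 9000 and triangles for those from 9000. Both pairs rise together in each subfield (r = 0.79 to 0.92 and 0.84 to 0.89).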

How the data were processed

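The deposited values are a signal, read counts per gene divided by a size factor of each library. Illumina reads were aligned by the authors with STAR 2.5 to rn5, counted with featureCounts 1.4.4 and scaled with DESeq2 1.16.1, and Ion Proton reads were aligned with TopHat2 and Bowtie2. The low values of each library were whole multiples of 1 read for 100.0% of values (tolerance 0.01), which gave the reads behind them. How reads shared by near-identical copies or by opposite strands were counted is not given in the sources used here.

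Values were fitted as log2(value + 1) with limma 3.58.1 in R 4.3.3, in genes with a mean of at least 10, over all genes, with Benjamini-Hochberg adjustment. This scale understates changes of low genes. Subfield fits used 102 libraries. Age and cognition fits used 1 value per rat. edgeR 4.0.16 and DESeq2 1.42.0 on recovered reads were alternatives. Fits were tested on simulated data. Permutation tests were 2-sided (100000 resamples).

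Rat numbers in the labels pair the subfields: deviations of the same rat correlated with a median of 0.0953, 0.0705 and 0.0965 in the Illumina, Ion Proton and WT tables, against −0.0124, −0.00663 and −0.0125 for different rats. Each rat is 1 replicate in the age and cognition fits. The main subfield and interaction fits treated the libraries of a rat as independent, and the rat entered as a replicate block only in an alternative.

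The members and all gene lists were chosen with earlier results of these data known. The rule named 24 classic members, the 6 largest changes called in each subfield pair, members specific to a subfield, retested members and the 3 with the largest SD, 30 in all. Other called members and genes of the lists were named after their values were seen.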

Additional observations from a re-analysis of the deposited data

Results flagged for a closer look

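Among 84 groups of 10 young rats in the Illumina table, 7 held a library far from the others by Dixon's limit, and chance gives about 1 in 20. In DG of rat R9881, Dnajb2 was highest at 2210 normalised reads, Hspb8 was highest at 470 and Hsph1 was lowest at 4201, and in the Ion Proton table the same library ranked 2, 1 and 2 from that end. In CA1 of rat R9879, Hspb8 was highest at 408 (rank 2 in the Ion Proton table). In CA3 of rat R9879, whose library lay nearer to another subfield by its markers, Hspa1a was lowest at 1.26 and Hspd1 was lowest at 1618 (ranks 8 and 3). In CA1 of rat R9877, Hspa1a was lowest at 5.69 (rank 6).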

How the results depend on the processing

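Of 453 recomputed changes of members called between subfields, 376 kept the call and direction, 74 lost the call and 3 reversed. The calls of Dnajc6 and Hspa12b between CA1 and DG and of Dnajb13 between CA3 and DG held under all 13 alternatives. The cause was not tested for any change given here. Each count is followed by the share of all genes called in the same setting. In rats numbered below 9000, 4 members were called between CA1 and DG (15.7%), 6 between CA3 and DG (23.4%) and 1 as specific to DG (7.74%), and 1 was retested for age in each of CA1, CA3, DG and the mean (0.617%, 0.253%, 0.682% and 0.853%). The 5 young rats of that series include R1922 and R1923, which set the age change of Dnajb12. In rats from 9000, 3 were called between CA1 and CA3 (3.95%), 0 as specific to CA1 (1.31%) and 9 as specific to DG (11.9%), 2 were retested for age in the mean (2.12%), and 0 correlations between subfields passed. Specific to CA1 were 2 without a filter on low values (3.29%), 2 after quantile normalisation (6.23%) and 2 without rats R1922 and R1923 (4.99%). Without the 7 deeply sequenced rats, 1 was specific to CA3 (4.97%) and 8 to DG (15.5%), and 1 and 2 were retested for age in CA1 and the mean (0.986% and 2.16%). edgeR, DESeq2 and the number series as a covariate each retested 1 for age in the mean (2.21%, 2.27% and 2.66%), and the covariate 1 for cognition in DG (0.489%). With the rat as a replicate block, 8, 19 and 13 members were called in the 3 subfield pairs (16.1%, 29.8% and 31.4%) and 4, 3 and 7 as specific to CA1, CA3 and DG (6.71%, 6.95% and 17.1%), with 0 interactions among members and among all genes, and the pairing changed no call of age or cognition, which use 1 value per rat.

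Signs turned for Dnaja2 in CA3 against DG (0.030 below 9000), for Hsp90ab1 (0.056) and Hspa12b (−0.035) in CA1 against CA3 from 9000, for Hsp90aa1 in cognition in DG (−0.037 in the WT table), and for Dnajb12 with age. The latter was −0.052, −0.017 and −0.0060 in CA1, CA3 and the mean from 9000, −0.038, −0.0051 and −0.012 without rats R1922 and R1923, and −0.030 and −0.00015 in CA1 and the mean without the deeply sequenced rats.

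Leaving out 1 rat at a time gave 6 to 8, 12 to 20 and 8 to 14 called members in the 3 subfield pairs (13.0% to 15.3%, 24.6% to 28.8% and 26.4% to 30.9% of all genes), 2 to 4, 3 to 3 and 3 to 8 specific to CA1, CA3 and DG (5.08% to 6.16%, 5.49% to 6.96% and 13.7% to 16.6%), 0 to 1 retested for age in CA1 (0.541% to 1.16%), 0 to 2 in the mean (1.35% to 2.37%) and 0 to 1 for cognition in CA1 (0.397% to 1.26%). Dnajb2 was retested for age in the mean by edgeR and DESeq2, from 9000, without the deeply sequenced rats and without any 1 of rats R1930, R1931, R2175, R2184, R2221 and R2233. Hspb2 and Hspa1a had few reads per library in both poly-A tables, and Hspa1b was at 0 in all Illumina libraries but 1.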
